A study of Mus musculus with 2 samples.

Results

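The cells described here were conjunctival-type epithelial cells among sorted cycling cells of the mouse cornea, 632 of 6188 cells kept (10.2%). They were chosen by their keratin UMIs (unique molecular identifiers, each a captured RNA molecule). A member had at least 5 UMIs of Krt12 and Krt15 together, a Krt12 share of these under 0.4, and at least 3 UMIs of Krt4, Krt13 and Krt19 together. Krt12 is the keratin of the differentiated corneal epithelium, Krt15 marks basal cells of the limbus and conjunctiva, and Krt4, Krt13 and Krt19 are keratins of mucosal epithelia. These 5 genes chose the members, were left out of every sum and test, and are no result. The main comparison was with 990 Krt15-dominant cells of the same libraries that met the same Krt12 and Krt15 criteria but had at most 2 UMIs of the mucosal keratins. A second comparison used 4310 Krt12-dominant cells, with a Krt12 share above 0.6.

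The study profiled single cells of the corneal epithelium of CycB1-GFP mice, in 1 group of 2 replicates, under a title on Sox9 in the limbus. The genotype CycB1-GFP carries a Cyclin B1 reporter, so the green fluorescence marks cycling cells, and all cells of all classes here were live and GFP-positive in the sort. Epithelium was peeled from dissected corneas after Dispase treatment, and the labels name no separate sample of conjunctiva and none of GFP-negative cells. The libraries are told apart by the barcode ending only, with no link to the replicate numbers, and are called library 1 and library 2. No label says whether they came from separate animals, how many animals were pooled, or their age or sex. The p-values therefore measure only how the differences between classes varied over these libraries, and cannot be read as a spread between animals.

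The conjunctiva is the mucous membrane that lines the eyelids and covers the white of the eye up to the limbus, where it meets the cornea. Its stratified epithelium is not keratinized. It carries membrane-bound mucins on its surface cells, holds scattered goblet cells that secrete gel-forming mucin, and adds antimicrobial proteins and lipid mediators to the tear film. Basal cells divide on the basement membrane, and their daughters move to the surface, lose integrins and gain junctions and surface proteins.

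Library 1 held 3187 kept cells and library 2 held 3001, from 19001107 and 18030874 UMIs in all barcodes. Members had a median of 5763 and 5822 UMIs per cell, against 4598 and 4602 in the Krt15-dominant comparison cells and 5814 and 6370 in Krt12-dominant cells. A threshold on UMIs admits deep cells more easily. With comparison cells matched on depth, calls against Krt15-dominant cells fell from 674 higher and 437 lower to 222 and 80. Matching left 79 and 73 comparison cells of 433 and 557, which is also a smaller comparison. The parts of depth and of cell number in this fall were not tested. Against Krt15-dominant cells, depth-matched values were followed only for Sox9, the genes that rose or fell most and the conjunctival markers. They are given below where a call changed. For the other genes of the lists below, calls with depth-matched cells are not given. The median mitochondrial share of members was 3.61% in library 1 and 4.36% in library 2, against 3.44% and 4.45% in comparison cells. Only 5 barcode sequences occurred in both libraries. The doublet caller marked 5 of 6188 cells and was not taken to have worked, so no doublet was removed, and 5 of 632 members had a doublet score in the top 3%.

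Members made up 7.22% of library 1 (230 cells, exact binomial 95% interval 6.34 to 8.17%) and 13.4% of library 2 (402 cells, 12.2 to 14.7%). Among all Krt15-dominant cells they were 34.7% (31.1 to 38.5%) and 41.9% (38.8 to 45.1%). These intervals cover counting error only, and the shares are set by the gate. With at least 10 mucosal keratin UMIs the shares were 2.51% and 6.20%, and with the gate applied to cells thinned to 2000 UMIs they were 3.49% and 8.45%. The members formed one continuous range of mucosal keratin. Just outside the threshold, 59 cells of library 1 and 97 of library 2 had 2 UMIs, and just inside it 46 and 58 cells had 3. The median member had 6 UMIs in library 1 and 9 in library 2, and 37 and 102 members had 20 or more. Krt4 was found in 191 and 348 members, Krt13 in 176 and 315, Krt19 in 145 and 272, and all of them in 87 and 177. No Krt12 UMI was found in 49 and 141 members, and 13 and 8 members had a Krt12 share of 0.3 or more.

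**Figure D1:**
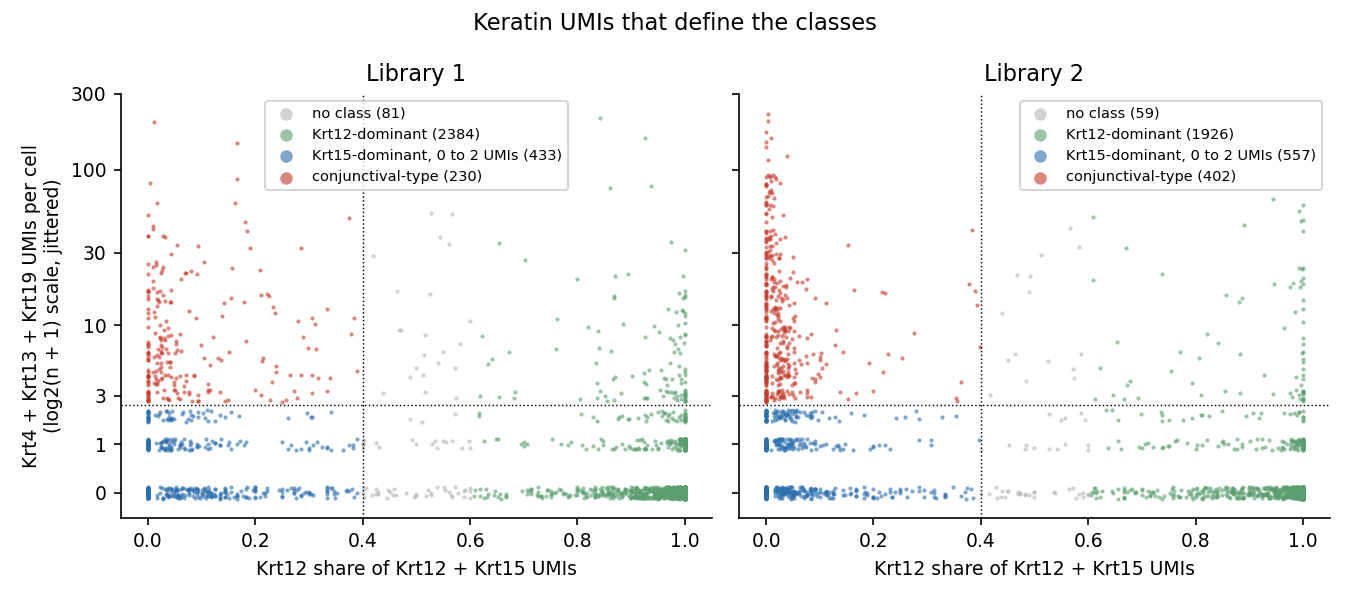
Each point is a cell, with its Krt12 share of Krt12 and Krt15 UMIs (x axis) and its UMIs of Krt4, Krt13 and Krt19 (y axis, log2 scale of the count plus 1, jittered), for library 1 (left) and library 2 (right); dotted lines mark the gate. Members (red, 230 and 402 cells) continue upward from the Krt15-dominant comparison cells (blue) without a gap, and 113 and 76 Krt12-dominant cells (green) also hold 3 or more mucosal keratin UMIs.

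The label was compared with 4 markers of conjunctival epithelium that the gate did not use. They were chosen together with the label, with earlier results of these data known, so they are no independent check of it. Krt7, a keratin of simple and glandular epithelia, stood at 311 and 612 CPM (CPM is the UMI count scaled to the library total, given for library 1 and library 2 in this order) in members, 139 and 331 in Krt15-dominant comparison cells and 4.73 and 10.3 in Krt12-dominant cells. Members lay highest within each library, and the difference from the comparison cells was 1.01 (SE 0.09, adjusted p = 1.32e-07) on the log2 scale, by edgeR's quasi-likelihood test with Benjamini-Hochberg adjustment, as are all adjusted p below. Alox12e, an epidermis-type lipoxygenase, stood at 256 and 689 CPM in members, 97.2 and 327 in comparison cells and 1.09 and 7.20 in Krt12-dominant cells. Its log2 fold change was 1.21 (SE 0.16, adjusted p = 0.0016). Alox15, a lipoxygenase that oxidizes arachidonic and linoleic acid, stood at 138 and 461, 34.4 and 105 and 1.75 and 3.97 CPM, with a log2 fold change of 2.09 (SE 0.12, adjusted p = 5.81e-11). Of the 4 markers, 3 passed, where 6.48% of all genes tested were called higher. Krt8, the type II partner of simple epithelial keratin filaments, had 136 and 418 CPM in members and 96.2 and 146 in comparison cells. Its log2 fold change of 1.08 (SE 0.42, adjusted p = 0.323) did not pass the threshold, although it passed with comparison cells matched on depth (1.43, adjusted p = 1.36e-05). Alox12e passed in the full comparison but not with depth-matched cells (1.34, adjusted p = 0.116).

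Against Krt12-dominant cells, Krt7, Alox12e, Alox15 and Krt8 were higher by 5.95, 6.92, 6.66 and 4.04 on the log2 scale, all 4 past the threshold, where 15.7% of all genes tested were called higher (adjusted p between 2.13e-19 and 0.0226). As class sums, the Krt15-dominant comparison cells carried the same markers at an intermediate level. For Krt8 in library 1, members with Krt4 or Krt13 as the leading mucosal keratin lay below the comparison cells, at 66.0 and 72.0 CPM. At 2000 UMIs per cell, Alox12e was detected in 30.8% (24.8 to 37.3%) of members of library 1 and 59.8% (54.7 to 64.7%) of library 2. The comparison cells had 14.6% (11.3 to 18.4%) and 32.5% (28.4 to 36.8%). Krt12-dominant cells had 0.189% (0.0515 to 0.483%) and 0.815% (0.446 to 1.36%), and the median depths are given above. Within that class, Alox12e stood at 7.59 and 58.7 CPM of all UMIs in cells with at least 3 mucosal keratin UMIs. The other Krt12-dominant cells had 0.523 and 3.98. The class is therefore no plain measure of free RNA, which was not measured on its own. Without thinning, the shares were 38.3% and 77.4% in members and 19.9% and 43.8% in comparison cells. None of Krt7, Krt8, Alox15 and Alox12e was found in 39.7% of thinned members of library 1 and 14.6% of library 2, against 63.6% and 38.7% of comparison cells. All 4 were found in 1.79% and 13.8% of members.

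Of 12 goblet cell markers, 10 had 0 UMIs in members of each library. The keratin gate and the sort for GFP-positive cells chose the members, so the values below do not cover goblet or other cells outside the gate. Muc5ac and Muc5b, the gel-forming mucins, Spdef, their transcription factor, and the trefoil genes Tff1, Tff2 and Tff3 had 0 UMIs in all members of both libraries. At 2000 UMIs per cell, 0 cells allows a share of cells with a UMI of up to 1.34% in library 1 and 0.783% in library 2 (3 cells, counting error only). Agr2, an endoplasmic reticulum protein of secretory cells, was detected, with 79.1 and 101 CPM in members and 44.6 and 56.6 in comparison cells. Its log2 fold change was 0.83 (SE 0.16, adjusted p = 0.000882). Fcgbp, the other goblet marker tested, did not pass against comparison cells and was lower than in Krt12-dominant cells. Limbal cells with the same keratins cannot be told apart from the members with these data. Markers of immune, stromal, melanocyte and endothelial cells were near 0: 9 immune markers summed to 5.51 and 11.9 CPM in members with 7 of 9 at 0 in each library, Ptprc among them, and 8 stromal markers summed to 10.3 and 9.50 CPM, where only Vim, an intermediate filament of mesenchymal cells, was detected. Of 6 melanocyte markers, 4 and 2 were at 0, with a sum of 4.82 and 4.36 CPM, and 5 endothelial markers summed to 0 and 0.792 CPM. The 8 markers of skin and meibomian gland were not near 0. They summed to 84.8 and 101.7 CPM in members, 86.2 and 89.7 in comparison cells and 38.4 and 34.4 in Krt12-dominant cells, with 3 and 2 of 8 at 0 in members. Of 4 tested, none passed against the comparison cells, and against Krt12-dominant cells the epidermal keratins Krt1 and Krt10 and the glutathione transferase Mgst1 were higher and the sterol acyltransferase Soat1 lower. Their part in the results was not tested.

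**Figure D2:**
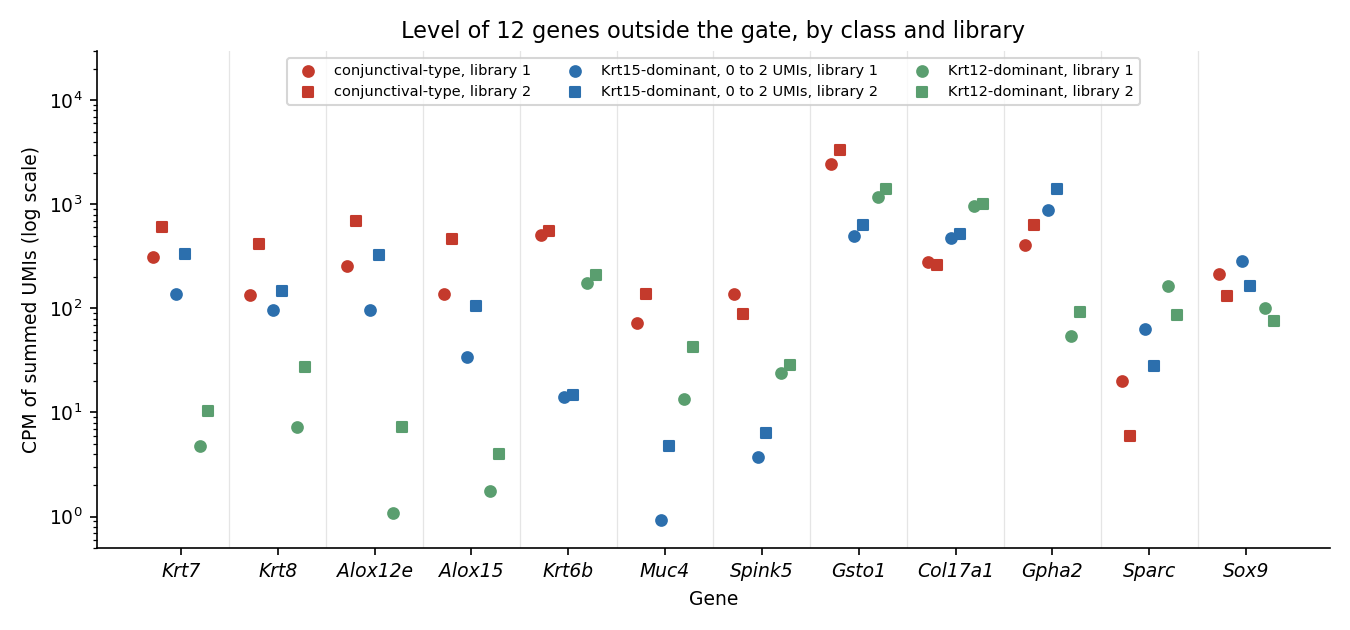
CPM of summed UMIs (log scale) of 12 genes outside the gate in conjunctival-type cells (red), Krt15-dominant comparison cells (blue) and Krt12-dominant cells (green), with a circle for library 1 and a square for library 2. Krt7, Alox12e and Alox15 fall from red to blue to green within each library, while Krt6b and Gsto1 are lowest in the blue class.

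Beyond these markers, 10395 genes were tested. Against the Krt15-dominant comparison cells, 674 genes were higher in members (6.48% of those tested) and 437 were lower (4.2%), together 10.7%, with an unadjusted p under 0.05 for 2401. All 1111 had the same sign in both libraries. With 2 libraries as a block, a gene of opposite signs can hardly be called, so this is no separate support. Of the called genes, 277 were over 2-fold higher and 170 over 2-fold lower. The counts fell without library as a block (161 higher and 41 lower) and with DESeq2 (350 and 148). They also fell with comparison cells matched on total UMIs (222 and 80). Against Krt12-dominant cells, 1636 were higher (15.7%) and 1545 lower (14.9%), together 30.6% of those tested. The higher genes in both comparisons numbered 396. The median log2 fold change over all genes tested was -0.02 in both comparisons.

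Among genes with a mean of at least 20 CPM, the 12 that rose most against the Krt15-dominant cells were led by Krt6b and Muc4. Krt6b, a keratin of suprabasal and activated epithelium, was at 509 and 550.1 CPM in members and 13.9 and 14.6 in comparison cells. Its log2 fold change was 5.21 (SE 0.13, adjusted p = 2.00e-17). Muc4, a membrane-bound mucin of the ocular surface, was at 72.0 and 138 against 0.930 and 4.75 CPM, and rose by 5.20 (SE 0.29, adjusted p = 1.78e-09). Both genes separated the classes without overlap between libraries. Spink5, a secreted inhibitor of kallikrein proteases, rose by 4.41 (SE 0.33, adjusted p = 1.23e-05) and Serpinb11, an intracellular serpin, by 3.45 (SE 0.31, adjusted p = 9.04e-08). The aldo-keto reductase Akr1b7 rose by 4.17, and Hopx, a homeodomain protein of differentiating epithelia, by 3.35. Mal, a proteolipid of apical membrane traffic, rose by 3.08 and the predicted gene Gm94 by 3.03. Krt16, a keratin of activated epithelium, rose by 2.79 and Enpp3, an ectoenzyme that cleaves nucleotides, by 2.78. Rbp2, a cellular retinol-binding protein, rose by 2.77 and Arg1, arginase 1, by 2.75. In library 1 and library 2 alone the log2 ratio was 5.02 and 3.71 for Spink5 and 1.97 and 3.61 for Arg1. All except Mal were also higher than in Krt12-dominant cells, where Mal stood at 335 and 715 CPM against 408 and 678 in members. Krt16 was not past the threshold with depth-matched comparison cells (1.99, adjusted p = 0.22). Reads of Krt6a and Krt6b, and of Krt14, Krt16 and Krt17, are alike in sequence, so counts may be split between them.

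The 12 genes that fell most by the same rule were led by Sparc and Ctnnal1. Sparc, a matrix glycoprotein, was at 19.9 and 5.99 CPM in members and 64.1 and 28.1 in comparison cells, and fell by 1.91 on the log2 scale (SE 0.22, adjusted p = 3.16e-06). Jag2, a Notch ligand, was at 23.5 and 37.9 against 73.9 and 108 CPM, with a log2 fold change of -1.56 (SE 0.15, adjusted p = 1.60e-07). Itga3, the laminin-binding integrin alpha 3 chain, was at 14.96 and 15.2 against 53.9 and 38.8 CPM (-1.57). In all of Sparc, Jag2 and Itga3, members lay below the comparison cells in each library. Ctnnal1, a relative of alpha-catenin, had a log2 fold change of -1.87, the collagen Col14a1 -1.79, and the matrix genes Fndc1 and Spon2 -1.72 and -1.60. Agrn, the basement membrane proteoglycan agrin, had -1.61, the collagen-binding receptor Antxr1 -1.57 and thrombospondin 1 (Thbs1) -1.55. Gphb5, the beta subunit of thyrostimulin, had -1.52 and Epb41l3, a membrane skeleton protein, -1.50. The log2 ratio of Gphb5 was -0.84 in library 1 and -1.78 in library 2. Against Krt12-dominant cells, 7 of these 12 genes were lower, 3 were higher (Col14a1, Gphb5 and Epb41l3) and 2 did not pass (Fndc1 and Thbs1). With depth-matched comparison cells Col14a1, Fndc1 and Agrn were not past the threshold (adjusted p = 0.0714, 0.193 and 0.0595), and with the gate at 2000 UMIs Sparc, Spon2 and Thbs1 were not (0.0958, 0.296 and 0.389).

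The lower calls in particular depended on which comparison cells were used. Gpha2, the alpha subunit of thyrostimulin and a marker of limbal basal cells, was found without thinning in 860 of the 990 comparison cells. It was also found in 149 of 230 members of library 1 and 301 of 402 of library 2. These members were kept, so the next comparison removed Gpha2-positive cells from 1 side only. With only the 130 comparison cells that had no Gpha2 UMI (77 and 53 cells), which is also a smaller comparison, 51 genes were higher and 16 lower. Jag2 then differed by -0.12 (adjusted p = 0.977), Itga3 by -0.34 (adjusted p = 0.923) and Agrn by -0.30 (adjusted p = 0.948). All 12 of the most lowered genes lost their call in it, 7 of the other 12 kept theirs, and Spink5, Akr1b7, Serpinb11, Enpp3 and Arg1 did not. Among the markers, Alox15 (1.54, adjusted p = 0.124) and Alox12e (1.25, adjusted p = 0.108) lost theirs. Sparc was also not past the threshold, with a log2 fold change of -1.78 (adjusted p = 0.055). Muc4, Krt6b, Hopx and Rbp2 were still higher than in these cells, by 4.00, 3.41, 2.72 and 1.07, all past the threshold.

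**Figure D3:**
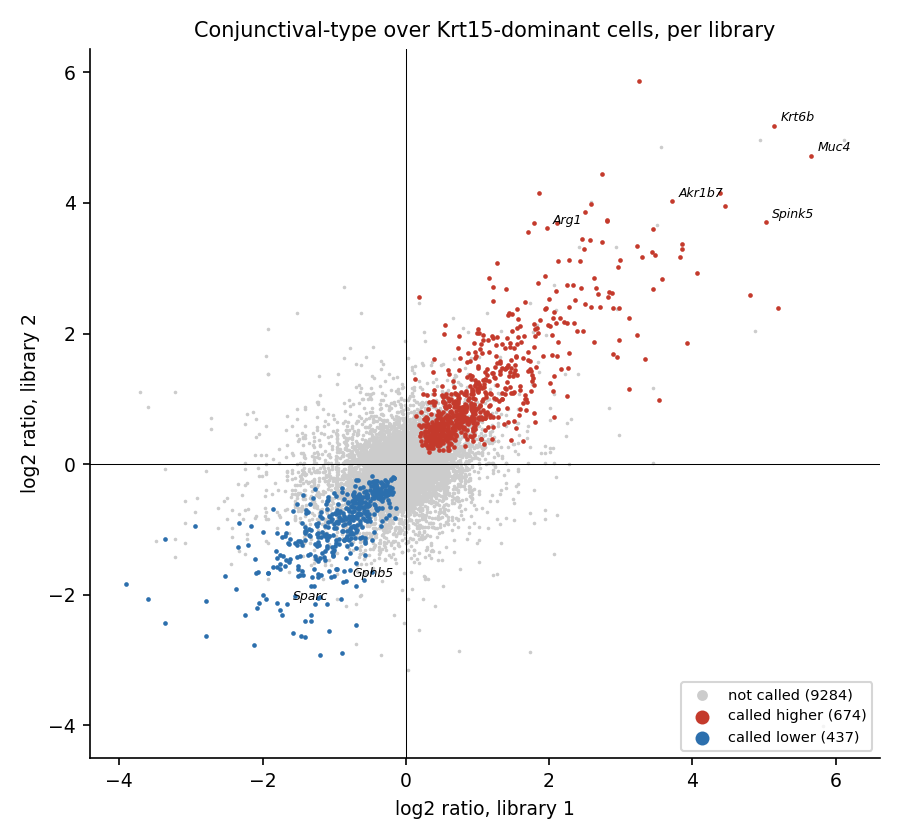
Log2 ratio of conjunctival-type over Krt15-dominant comparison cells in library 1 (x axis) and library 2 (y axis), 1 point per gene tested; 674 genes called higher are red, 437 called lower are blue and the rest grey. Called genes have the same sign in both libraries, with Krt6b and Muc4 at the upper right and Sparc and Gphb5 at the lower left.

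Of 9 tested keratins of stratified epithelium, 3 rose (Krt5, Krt6b and Krt16) and none fell, with a median log2 fold change of 0.70. Krt6a, at 2432 and 2189 CPM against 569 and 424, differed by 2.25 (SE 0.40, adjusted p = 0.134) and did not pass. Of 11 tested genes of surface differentiation, 6 rose and none fell (median 1.63). They were Calml3, a calmodulin-like protein (1665 and 1987 against 575 and 638 CPM, log2 fold change 1.59), the plakins Evpl (1.67) and Ppl (1.44), transglutaminase 1 (Tgm1, 1.67), Sbsn (1.63) and Spink5. Of cornified envelope genes too low to test, Sprr3 and Flg had 0 UMIs in members, Sprr1b had 30 and 2 (3 and 1 in comparison cells) and Lor 3 and 6 (1 and 3). Of 9 tested mucins and glycocalyx genes, 5 rose and none fell (median 3.13). Muc1, a membrane-bound mucin, was at 20.7 and 27.5 against 3.25 and 2.37 CPM, and Lgals3, the galectin that crosslinks mucins at the surface, at 982 and 1164 against 489 and 418. Muc15 and Muc20 rose by 3.46 and 3.58 from under 3 CPM. Muc16 had 0 UMIs in members.

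Tight junctions, gap junctions and water channels were mostly higher, with 10 called higher and 1 lower of 18 tested (median 1.04). Claudins seal the space between cells. Cldn7 was at 365 and 493 against 136 and 175 CPM (log2 fold change 1.46), Cldn4 at 199 and 111 against 70.7 and 26.5 (1.76) and Cldn3 at 199 and 252 against 105 and 132 (0.93). Occludin (Ocln, 2.15), tricellulin (Marveld2, 1.76), the scaffolds Tjp1 (0.53) and Tjp3 (1.16), and the connexin Gjb5 (1.33) were among the others that rose. Aqp3, a channel for water and glycerol, was at 541 and 519 against 256 and 212 CPM (1.18). Gja1, a connexin of basal cells, fell by 0.64.

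Contacts with the basement membrane moved the other way. Of 19 tested adhesion and basement membrane genes, 3 rose and 8 fell (median -0.41). Col17a1, the hemidesmosome collagen, was at 278 and 261 CPM in members, 478 and 517 in comparison cells and 971 and 1010.4 in Krt12-dominant cells. Its log2 fold change was -0.89 (SE 0.08, adjusted p = 1.56e-07). Itgb4, its integrin partner, was at 80.5 and 122 against 177 and 235 CPM (-1.002, adjusted p = 0.00627). Itga3, Itga2 and Itgb1, the plakin Dst and the laminin chains Lamb3 and Lama5 also fell, by 0.49 to 1.73 on the log2 scale. The genes that rose were desmosomal cadherins, Dsc2 (1.43) and Dsg3 (0.68), and the hyaluronan receptor Cd44 (0.42).

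Lipid mediators, defence proteins and metabolic enzymes gave a mixed pattern. Of 10 tested eicosanoid genes, 3 rose and 2 fell (median 0.30). The risers were Alox12, Alox12e and Alox15, and they lie close together on chromosome 11. On GRCm38 (GENCODE M21), Alox12 spans 70241457 to 70255353, Alox12e 70315610 to 70322628 and Alox15 70344152 to 70352031, all on the minus strand. Alox12, a lipoxygenase, was at 32.1 and 63.5 against 6.97 and 17.0 CPM and rose by 1.99 (SE 0.24, adjusted p = 4.07e-06). Ptges, a prostaglandin E synthase, and Hpgd, which inactivates prostaglandins, fell by 1.09 and 1.13. Of 10 tested secreted defence genes, 4 rose and 2 fell (median -0.05). Pglyrp1, which binds bacterial peptidoglycan, was at 490.1 and 681 against 106 and 151 CPM and rose by 2.19 (SE 0.09, adjusted p = 6.38e-13). Lactoferrin (Ltf), the chemokine Cxcl17 and the defensin Defb1 rose by 1.79, 1.34 and 0.86, and Lcn2, which binds siderophores, and complement C3 fell by 0.83 and 1.36.

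Of 19 tested antioxidant and xenobiotic genes, 5 rose and 2 fell (median 0.27). Gsto1, an omega-class glutathione transferase, was at 2426 and 3362 CPM in members, 499 and 630.4 in comparison cells and 1178 and 1422 in Krt12-dominant cells, a log2 fold change of 2.35 (SE 0.07, adjusted p = 1.23e-15). Gsta4, an alpha-class glutathione transferase, rose by 1.60, heme oxygenase (Hmox1) by 2.26, Cyp2f2, a cytochrome P450 of airway epithelium, by 1.49 and Adh7, an alcohol and retinol dehydrogenase, by 0.43. Gclm, a subunit of the enzyme that starts glutathione synthesis, and the peroxiredoxin Prdx6 fell by 0.61 and 0.45. Of 14 tested retinoid genes, 2 rose and 1 fell (median 0.11): Adh7, Aldh1a3, which makes retinoic acid (1.31), and the retinol dehydrogenase Rdh10 (-0.98). Of 10 ion transport genes, the glucose cotransporter Slc5a1 rose (2.74) and Car12, a carbonic anhydrase, and the sodium pump subunit Atp1b1 fell (median -0.08).

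Limbal markers that passed were mostly lower than in the comparison cells, and corneal markers were mostly lower than in Krt12-dominant cells. Of 19 tested limbal markers, 1 rose and 6 fell (median -0.22). Against Krt12-dominant cells, 8 were higher and 5 lower (median 0.63). The limbal markers summed to 17250 and 14600 CPM of all UMIs in members and 16440 and 15700 in comparison cells. Krt12-dominant cells had 11670 and 6714. Gpha2 was at 412 and 638 CPM in members, 884 and 1404 in comparison cells and 54.1 and 92.8 in Krt12-dominant cells. It fell by 1.12 (SE 0.08, adjusted p = 1.95e-09) against the first and rose by 2.85 against the second. Gphb5, its heterodimer partner, Trp63, the transcription factor of basal cells, the metallothioneins Mt1 and Mt2, and Id3 also fell, by 0.56 to 1.52. Ifitm1, an interferon-inducible membrane protein, rose by 1.25. Of 9 tested corneal markers, 7 were lower than in Krt12-dominant cells (median -1.92) and 1 higher (Areg, an EGF receptor ligand). Against the comparison cells 2 were higher, Areg and the desmoglein Dsg1a, and 2 lower, Gja1 and the matrix protein Tgfbi (median -0.12). Aldh3a1, the corneal crystallin dehydrogenase, was at 591 and 697 CPM in members against 7663 and 10893 in Krt12-dominant cells, and it did not pass against the comparison cells (-0.12, adjusted p = 0.848). Slurp1, a secreted protein of corneal epithelium, was at 12.8 and 18.4 against 978 and 1137 CPM.

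Of 26 tested lineage transcription factors, 5 rose and 6 fell against the comparison cells (median -0.03). The risers were Elf3, an epithelial ETS factor (161 and 224 against 69.3 and 84.6 CPM, 1.33), Grhl1 (1.67) and Grhl3 (2.39), grainyhead factors of epithelial barriers, Klf3 (0.37) and Hes1 (0.38). Trp63, Tfap2b, Tfap2c, Lmo4, Nfib and Sox9 fell, by 0.32 to 0.95. Pax6, the eye selector gene, was at 412 and 397 against 402 and 365 CPM and did not pass (0.08, adjusted p = 0.643). Barx2, a homeobox factor, was at 272 and 327 CPM in members, 210.1 and 274 in comparison cells and 25.6 and 12.8 in Krt12-dominant cells, where the difference of 3.96 passed (adjusted p = 0.0385).

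Sox9, an HMG-box factor and the gene of the study's title, was at 217 and 133 CPM in members, 288 and 164 in comparison cells and 101 and 76.2 in Krt12-dominant cells. Members lay between the other classes within each library. Members and comparison cells overlapped across libraries, and Krt12-dominant cells were lower than both in every library. The log2 fold change was -0.36 (SE 0.11, adjusted p = 0.0359) against comparison cells and 0.95 (adjusted p = 5.37e-07) against Krt12-dominant cells. The first call was lost in 7 alternatives, among them depth-matched comparison cells (-0.14, adjusted p = 0.767) and comparison cells without Gpha2 (-0.06, adjusted p = 0.974). After thinning to 2000 UMIs, Sox9 was detected in 33.9% (27.8 to 40.5%) of members in library 1 and 22.4% (18.4 to 27%) in library 2, and in 40.2% (35.5 to 45.1%) and 23.2% (19.6 to 27.2%) of comparison cells. These intervals overlapped within each library.

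Signalling genes differed by pathway. Of 17 tested Wnt genes, none rose and 6 fell (median -0.50). Wnt10a, a ligand, was at 47.0 and 71.9 against 110.2 and 165 CPM, a log2 fold change of -1.20 (SE 0.13, adjusted p = 1.32e-06). Sfrp1, a secreted inhibitor of Wnt ligands, was at 224 and 322 against 410 and 558 (-0.83). Axin2, a target gene of the pathway (-1.57), the receptor Lgr4 (-0.64), the transcription factor Tcf7l2 (-0.43) and Dkk3 (-1.18) also fell. Of 11 tested Notch genes, the receptor Notch3 (1.29) and the target genes Hes1 and Nrarp (1.10) rose, and the ligands Jag2 and Dll1 (-1.31) fell (median 0.08). Of 13 tested EGF and FGF genes, 3 rose and 1 fell (median 0.38). Areg was at 64.8 and 38.7 against 15.8 and 6.33 CPM (2.24), the receptor Erbb3 and the FGF carrier Fgfbp1 rose by 0.71 and 0.80, and the receptor Fgfr2 fell by 0.63.

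Few cell cycle genes passed, and most lay slightly below 0. All cells had passed the same reporter gate. Of 42 tested S phase genes, none rose and 3 fell (Mcm6, Hells and Ubr7; median -0.28, all 42 below 0), and of 53 G2/M genes, none rose and 3 fell (Tmpo, Cks2 and Kif23; median -0.18, 49 below 0). Mki67, a proliferation antigen, was at 707 and 798 CPM in members and 771 and 1035 in comparison cells and did not pass (-0.26, adjusted p = 0.0555). At 2000 UMIs per cell it was detected in 63.8% (57.2 to 70.1%) of members in library 1 and 66.8% (61.9 to 71.5%) in library 2, and in 72.2% (67.7 to 76.5%) and 73.8% (69.7 to 77.6%) of comparison cells, against 84.8% and 82.6%, and 87.99% and 84.7%, without thinning. Ccnb1, the gene of the reporter, was at 217 and 185 against 190.1 and 203 CPM (0.02, adjusted p = 0.949).

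Of 16 tested immediate early genes, Fos and Jun fell and none rose (median -0.24), and of 16 clock genes Hlf fell and none rose (median -0.41). Of 12 antigen presentation genes, Cd74, the invariant chain of MHC class II, fell (0.712 and 14.4 against 2.32 and 61.3 CPM) and all 12 had a log2 fold change below 0 (median -0.22). Of 13 interferon genes, Ifit2 fell, and of 9 heat shock genes Hspb1 rose and Hspa8 fell (medians 0.12 and 0.05). Xist, which is expressed in female cells only, was at 479 and 887 CPM in members and 932 and 1212 in comparison cells (-0.68, adjusted p = 0.0636). The Y-linked Ddx3y was at 24.9 and 14.4 against 19.5 and 10.3 CPM; transcripts of both sexes were found in both libraries. With only cells that had an Xist UMI, an alternative added after seeing the data, 449 genes were higher and 269 lower, and Muc4 (adjusted p = 0.0542) and Mal (0.053) were not past the threshold.

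Genes that rose in members did not all follow the mucosal keratins in the same way along the range. Krt15-dominant cells were split by their mucosal keratin UMIs, as a description with no test, with CPM per all UMIs of those cells and exact Poisson intervals for counting error in the plot. Krt7 was higher toward the top of the range, from 107 and 290.3 CPM in cells with 0 UMIs to 231 and 507 with 3 and 387 and 826 with 20 or more. Alox12e went from 71.2 and 233 through 159 and 545 to 274 and 973 CPM, but was highest in library 1 with 10 to 19 UMIs (328). Krt8 went from 76.3 and 136 through 127 and 283.5 to 151 and 663 CPM. Krt6b and Muc4 were low over most of the range. Krt6b stood at 16.3 and 7.66 CPM with 0 UMIs, 94.1 and 42.5 with 4 to 9, 400.1 and 209 with 10 to 19 and 1636 and 1573 with 20 or more. Muc4 stood at 6.84 and 9.81 CPM with 4 to 9 UMIs and 283 and 400.1 with 20 or more. Calml3, of the surface differentiation genes, instead rose along the whole range. It stood at 443 and 492.5 CPM with 0 UMIs, 787 and 904 with 3 and 2552 and 3114 with 20 or more.

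Several other genes were highest in the 37 and 102 cells with 20 or more mucosal keratin UMIs. Gsto1 stood at 612 and 907 CPM with 3 UMIs and 5756 and 7299 at the top, and Pglyrp1 at 179 and 239 and 1337 and 1549. Genes lower in members declined over a wider part of the range. Gpha2 went from 959 and 1556 through 474 and 760.5 to 148 and 357 CPM, and Col17a1 from 518 and 568 through 308 and 363 to 114 and 126. Itgb4 stood at 191 and 255 CPM at the bottom and 15.4 and 67.5 at the top, and Mki67 at 812 and 1084 and 498 and 451. The median depth rose over the same range from 4344 and 4379 UMIs per cell to 8013 and 7076, and its part in these trends was not tested.

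**Figure D4:**
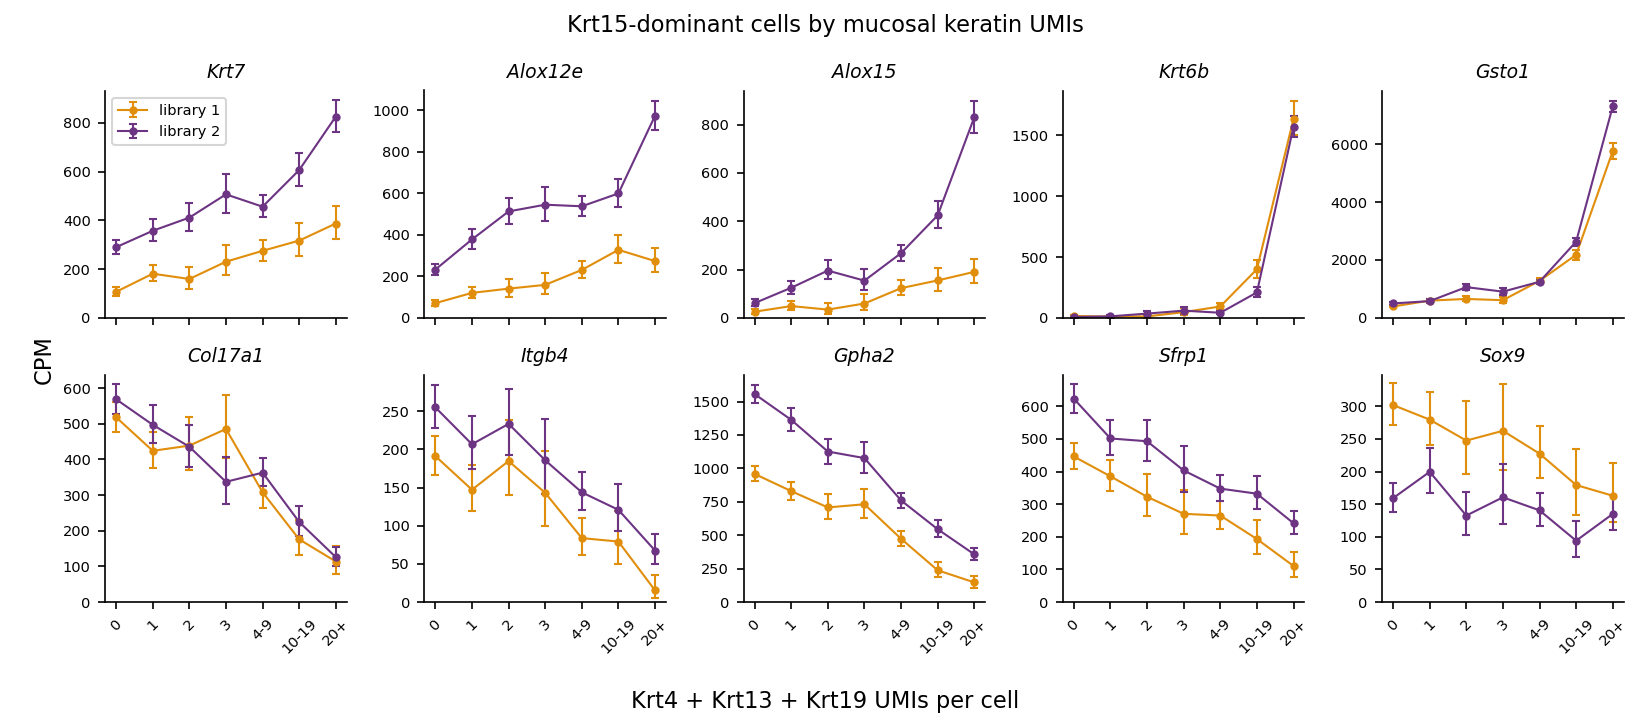
CPM (y axis, starting at 0) of 10 genes in Krt15-dominant cells grouped by UMIs of Krt4, Krt13 and Krt19 (x axis, 0 to 20 or more), for library 1 (orange) and library 2 (purple), with exact Poisson 95% intervals of the UMI sums. Krt6b and Gsto1 rise at the right end, Krt7 and Alox12e are higher at the right than at the left end, and Col17a1, Itgb4, Gpha2 and Sfrp1 are lower there.

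The members also differed by which mucosal keratin led. Krt4 had the most UMIs in 98 and 148 members, Krt13 in 59 and 117, and Krt19 in 50 and 105, with ties in 23 and 32. Krt8 stood at 375 and 855 CPM in members led by Krt19, against 66.0 and 282 in those led by Krt4 and 72.0 and 201 in those led by Krt13. Krt7 stood at 446 and 845, 247 and 552 and 298 and 484 CPM in the same order. Members led by Krt19 thus held more Krt7 and Krt8 in each library, and this was not particular to these keratins. Muc4 stood at 124 and 287, 39.3 and 81.5 and 96.85 and 89.0 CPM in the same order. Krt6b, Pglyrp1 and Gsto1 were also highest in those led by Krt19. Spink5 was lowest in those led by Krt19, with 92.0 and 44.2 CPM. Those led by Krt13 had 216 and 129, and those led by Krt4 had 113 and 88.2. In library 1 the Spink5 intervals for Krt19 (60.1 to 135) and Krt4 (88.5 to 142) overlapped. Col17a1 was close to level, between 248 and 279 CPM in all 3 kinds.

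Mucosal keratins also occurred in corneal-type cells, which allowed the same contrast to be made there. Of the Krt12-dominant cells, 113 in library 1 (4.74%) and 76 in library 2 (3.95%) had at least 3 mucosal keratin UMIs, against 34.7% and 41.9% of Krt15-dominant cells. They were deep, with a median of 8920 and 8691 UMIs, and 21 of these 189 cells were among the 3% with the highest doublet score. In a fit of all 4 classes that was added after seeing the data, 748 genes were higher in them than in the other Krt12-dominant cells (7.13% of 10493) and 356 lower (3.39%). The contrast within Krt15-dominant cells called 545 higher in that fit, and 392 genes were higher in both, which is 71.9% of the 545 and 52.4% of the 748. Called lower in both were 99 genes, 29.8% of 332 and 27.8% of 356. None was called higher in Krt15-dominant and lower in Krt12-dominant cells, and 4 were called the other way. The contrasts share no cells, but they share the libraries, the mucosal keratin threshold and its link to depth.

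Krt6b rose in both kinds of cell, by 5.22 in Krt15-dominant and 4.07 (SE 0.40, adjusted p = 0.0163) in Krt12-dominant cells, where it went from 103 and 90.7 to 1105 and 2322 CPM. Muc4 rose by 5.23 and 4.93, and Pglyrp1 by 2.19 and 2.32. For these genes the difference between the contrasts did not pass (adjusted p = 0.862, 0.958 and 0.972), and its size was 1.15 (SE 0.68) for Krt6b and 0.30 (SE 0.56) for Muc4. The difference itself passed for 28 genes (0.267%). Of the genes of the lists these were Krt7, Cldn3 and Gpha2. Krt7 reached 27.0 and 73.8 CPM and Alox12e 7.999 and 63.0 CPM in those cells, against 311 and 612 and 256 and 689 in members. Without library as a block no difference passed (362 at an unadjusted p under 0.05, against 751 with it), with depth-matched cells only Cldn3 did, and without the cells of highest doublet score 4833423E24Rik, Cldn3 and Krt7 did.

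**Figure D5:**
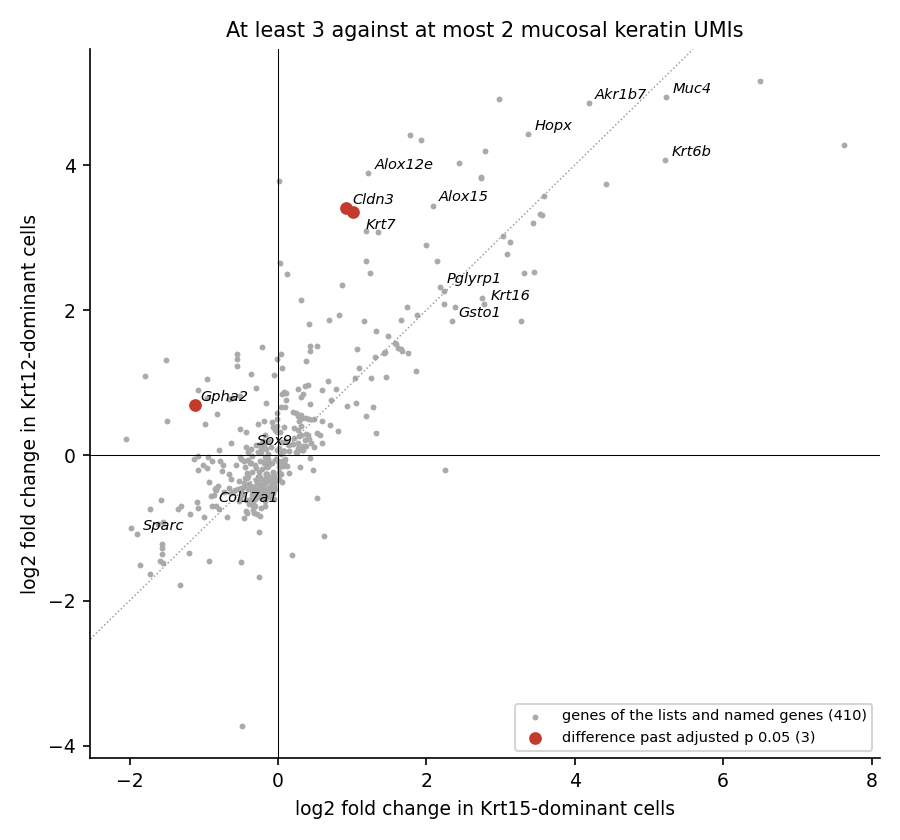
Log2 fold change between cells with at least 3 and at most 2 mucosal keratin UMIs, in Krt15-dominant cells (x axis) and in Krt12-dominant cells (y axis), for 410 genes of the lists and the named genes; the dotted line marks equal change. Muc4 and Pglyrp1 lie near the line, Krt6b lies below it, and Krt7, Cldn3 and Gpha2 (red) lie above it.

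Promoters of the most changed genes were searched for motifs. Of the 12 genes that rose most, 7 were matched in the RefSeq promoter table and searched, and of the 12 that fell most, 8. The 250 bases before the RefSeq start of each were searched on both strands for the AP-1 motif TGANTCA, the grainyhead motif AACCNGTT and the KLF motif GGGNGTGG. AP-1 occurred in 1 of 7 rising and 1 of 8 falling promoters, against 6.87% of 27025 genes. The grainyhead and KLF motifs occurred in none, against 1.71% and 15.8% of all promoters. So few promoters allow no comparison of these shares. The 2 promoters with a match are shown with the AP-1 letters in capitals, Serpinb11 from the rising and Gphb5 from the falling genes (GRCm38.p6, 5' to 3').
Serpinb11 (chr1:107362064-107362313, plus strand): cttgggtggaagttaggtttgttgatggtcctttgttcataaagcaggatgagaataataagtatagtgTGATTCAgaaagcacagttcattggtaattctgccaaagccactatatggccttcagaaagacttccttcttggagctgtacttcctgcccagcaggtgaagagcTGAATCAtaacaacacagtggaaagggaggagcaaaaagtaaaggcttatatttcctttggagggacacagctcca
Gphb5 (chr12:75416782-75417031, minus strand): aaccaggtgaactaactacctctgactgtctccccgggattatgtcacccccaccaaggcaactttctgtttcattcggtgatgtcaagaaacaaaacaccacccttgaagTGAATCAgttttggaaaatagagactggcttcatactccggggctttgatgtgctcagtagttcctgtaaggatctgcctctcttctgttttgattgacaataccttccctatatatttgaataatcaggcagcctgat
The first holds the motif in 2 places and the second in 1. A match is a description of the letters and shows no binding.

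Members of the libraries differed from each other as well, with 1 library against 1 and no test, in CPM of all UMIs without TMM scaling. Of 2985 genes with at least 50 CPM, 69 differed over 2-fold. Higher in library 2 were Dbp, a clock output gene (7.68 against 92.6 CPM, library 1 first), Cyp2f2 (13.96 and 110.7), H2-Q7, an MHC class I gene (16.1 and 86.96), Plac8 (46.8 and 242) and Ifi27l2a, an interferon-inducible gene (157 and 692). Lower in library 2 were S100a8 (137 and 0.403 CPM), S100a9 (273 and 16.5), the stress factor Atf3 (316 and 47.5), Adamts1 (85.8 and 17.7) and Krt16 (529 and 113). The comparison cells moved the same way for these 10 genes. Krt16 was at 73.2 and 18.1 CPM in them, so its difference between the classes stood within each library.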

How the data were processed

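The deposited table held whole-number UMI counts per gene and cell barcode for 31053 genes and 6752 barcodes of both libraries. The authors used Cell Ranger 3.1.0 and Seurat 5.0.0 with GRCm38 (mm10), per the submitters' processing notes, with no role stated for each. Whether the libraries were scaled to equal depth when combined is not given in the sources used here. Barcodes with under 500 genes (475) or with 20% or more mitochondrial UMIs (311) were removed. The members, lists and tests were chosen with earlier results of these data known. Scrublet (scanpy 1.11.5, expected rate 3%) called 5 cells (0.0808%) and none was removed.

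Counts were summed per library and class, the gate genes were left out, and 3 classes in 2 libraries were fitted in edgeR 4.0.16 (TMM scaling, low-count filter by filterByExpr, robust quasi-likelihood fit and test, with the library of each sum as the replicate block, since classes of 1 library were captured together) in R 4.3.3. The fit has 6 sums and few residual degrees of freedom. Adjusted p-values are Benjamini-Hochberg values over all genes tested, with a threshold of 0.05. CPM in the comparisons are scaled by TMM. Genes were named by rule: past the threshold, same sign in both libraries, a mean of at least 20 CPM, and among the 12 largest changes in each direction; list members are named with their list's counts. Between libraries, the 5 largest ratios per direction at 50 CPM or more are named. For shares of cells with a UMI, each cell was thinned to 2000 UMIs. The fit was first tested on simulated data. Of 200 genes changed by 1 on the log2 scale, 126 (63%) were called, and 11 other calls were false. False calls were thus 8.03% of the calls, above the threshold of 0.05. Of 31053 gene IDs, 31011 were in GENCODE M21. Alternatives were DESeq2 1.42.0, no block, no filter, no TMM, other gates, depth matching, a lower mitochondrial limit, no high doublet scores and other comparison cells. The restriction to cells with an Xist UMI and the comparison within Krt12-dominant cells were added after seeing the data. Values of 1 gene counted in a list are not reported here.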

Additional observations from a re-analysis of the deposited data

Results flagged for a closer look

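A difference between the mucosal keratin contrast in Krt12-dominant cells and the same contrast in Krt15-dominant cells passed edgeR's test of that difference for 3 genes of the lists. Each value is the log2 fold change in Krt15-dominant cells minus that in Krt12-dominant cells. Krt7, a keratin of simple epithelia, had -2.34, with a rise in both kinds of cell. Cldn3, a claudin, had -2.49, also with a rise in both. Gpha2, a limbal marker, had -1.81, being lower in the members and higher in Krt12-dominant cells with mucosal keratins. Gpha2 did not pass without the cells of highest doublet score (adjusted p = 0.205), Gpha2 and Krt7 did not pass with depth-matched cells (0.108 and 0.0544), and none of the 3 passed without library as a block.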

How the results depend on the processing

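Among Sox9, the genes that rose or fell most and the conjunctival markers, none reversed direction in the alternatives. For the other genes of the lists, direction in the alternatives was not checked. Against Krt15-dominant cells, genes called higher and lower numbered 161 and 41 without the replicate block, 350 and 148 with DESeq2, 222 and 80 with depth-matched comparison cells, 370 and 233 with the gate at 2000 UMIs, 51 and 16 with comparison cells without Gpha2, and 449 and 269 with Xist-positive cells. They numbered 997 and 816 with only the compared classes fitted, and 1006 and 807 with at least 10 mucosal keratin UMIs. Against Krt12-dominant cells the counts were 834 and 661 without the block, 960 and 641 with DESeq2 and 870 and 636 at 2000 UMIs, and 1016 lower with Xist-positive cells. The percent of calls that were higher was 60.7, and 79.7 without the block, 70.3 with DESeq2, 73.5 with depth matching and 76.1 without Gpha2.

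Sox9 differed by -0.38 without the block (adjusted p = 0.73), -0.36 with DESeq2 (0.369), -0.14 with depth matching (0.767), -0.36 at 2000 UMIs (0.269), -0.37 with a Krt12 share under 0.2 (0.0552), -0.34 with a mitochondrial limit of 10% (0.0515) and -0.064 without Gpha2 (0.974), and by -0.41 and -0.30 in library 1 and library 2 alone. The share of members in library 1 was 3.49% with the gate at 2000 UMIs, 2.51% with at least 10 mucosal keratin UMIs and 6.02% with a Krt12 share under 0.2, and in library 2 it was 8.45% and 6.20% under the first and second of these. Without thinning, Muc4 was found in 11.3% and 21.4% of members, Alox12e in 38.3% and 77.4% of them and 19.9% and 43.8% of comparison cells, and Mki67 in 84.8% and 82.6%, and 87.99% and 84.7%.

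Within Krt12-dominant cells, 178 genes were higher and 31 lower without the block, and 492 and 144 with depth matching. Matching left 316 and 208 of the 2271 and 1850 Krt12-dominant cells with at most 2 mucosal keratin UMIs. The difference of the contrasts was called for 0, 3 and 1 genes without the block, without high doublet scores and with depth matching. Without the block Krt7 (adjusted p = 0.607), Alox15 (0.415), Alox12e (0.723) and Muc4 (0.151) lost their calls, as did 12 other of the most changed genes, Akr1b7, Hopx, Mal, Krt16, Enpp3, Arg1, Sparc, Col14a1, Fndc1, Jag2, Thbs1 and Gphb5. Krt8 passed with only the compared classes fitted, with depth matching, at 2000 UMIs and without Gpha2. In 1 library alone, the 24 most changed genes kept their sign, which the naming rule required. Spink5, Arg1 and Gphb5 moved by over 1.5 times in fold. The cause of these changes was not tested. With 2 libraries, few sums limit what can be called, and genes of a few UMIs per class were not tested.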
